A study of Drosophila melanogaster with 2 samples.

Results

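The microRNA genes of Drosophila melanogaster were examined for nearby binding of sugarbabe (sug). This factor has zinc fingers and is known for being induced when flies eat sugar. Members were all genes annotated as microRNA precursor hairpins on the main chromosome arms in the Ensembl annotation, which gave 260 hairpins among 17796 annotated genes. Hairpins separated by at most 5 kb were merged into loci, which left 202 loci, 176 of a single hairpin and 26 of 2 to 8. A locus was counted as having a summit where the point of highest signal of a peak lay within 5 kb of its span, which runs over all its hairpins and the gaps between them. Distances of a locus are from the nearer end of that span. The peaks came from ChIP-seq of whole embryos of mixed sex, 8 to 24 hours old, from a transgenic line that makes sug with GFP fused to its C-terminus, and the antibody recognised GFP. The 2 biological replicates form a single group and share the line. No group without the tagged protein and no control library were analysed here, so signal that would also appear without the tag cannot be told apart from binding of sug. The authors filtered peaks by their irreproducible discovery rate (IDR), which left 9342 summits. Whole embryos mix all cell types, so a summit does not say in which cells the tagged protein was bound.

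MicroRNAs are short RNAs that repress messenger RNAs by pairing, mostly through bases 2 to 8 of the mature strand, which are called the seed. Each is cut from a hairpin in a longer primary transcript. Some hairpins lie in introns of protein-coding genes and can be made from the host's transcript, while others have primary transcripts of their own, often annotated as long non-coding RNAs. In flies the hairpin can lie kilobases from the start of that transcript, so a factor bound at the promoter need not be bound near the hairpin.

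The mature microRNAs of 20 hairpins with a summit within 1 kb of the locus, or with one of the 10 highest signals, are shown first, since the loci described below are named after them. The sequences were read at RefSeq coordinates on the Release 6 assembly (dm6), are written 5′ to 3′ and have the seed in capitals.
bantam (mir-ban) 3p, chr3L:642259-642281 (plus strand): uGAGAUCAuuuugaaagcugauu
mir-277 3p, chr3R:10100080-10100102 (plus strand): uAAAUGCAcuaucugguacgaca
mir-34 5p, chr3R:10100952-10100975 (plus strand): uGGCAGUGugguuagcugguugug
mir-279 3p, chr3R:29215651-29215672 (plus strand): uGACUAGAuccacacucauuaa
mir-996 3p, chr3R:29217244-29217265 (plus strand): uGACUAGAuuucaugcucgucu
mir-9a 5p, chr3L:19565140-19565162 (plus strand): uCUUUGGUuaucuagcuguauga
mir-10 5p, chr3R:6809553-6809574 (minus strand): aCCCUGUAgauccgaauuuguu
mir-275 3p, chr2L:7425853-7425875 (plus strand): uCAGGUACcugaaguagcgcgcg
mir-305 5p, chr2L:7425979-7426001 (plus strand): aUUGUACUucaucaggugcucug
mir-282 5p, chr3L:3251038-3251061 (plus strand): uAGCCUCUacuaggcuuugucugu
mir-314 3p, chr3L:11773081-11773101 (plus strand): uAUUCGAGccaauaaguucgg
mir-956 3p, chr3L:11773740-11773762 (minus strand): uUUCGAGAccacucuaauccauu
mir-92a 3p, chr3R:25646560-25646581 (plus strand): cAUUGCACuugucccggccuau
mir-92b 3p, chr3R:25651457-25651478 (plus strand): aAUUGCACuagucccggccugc
mir-87 3p, chr2L:9950433-9950456 (minus strand): uUGAGCAAaauuucagguguguga
mir-375 3p, chr2L:857596-857617 (plus strand): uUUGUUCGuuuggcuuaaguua
mir-276a 5p, chr3L:10365243-10365265 (plus strand): cAGCGAGGuauagaguuccuacg
mir-970 3p, chrX:12636396-12636416 (plus strand): uCAUAAGAcacacgcggcuau
mir-4913 3p, chr3L:8354184-8354206 (minus strand): aUUAACCAauucgaauugcuuag
mir-958 3p, chr3L:22669302-22669323 (minus strand): uGAGAUUCuucuauucuacuuu
Mir-279 and mir-996 share the seed GACUAGA, and mir-92a and mir-92b share the seed AUUGCAC. Each of these pairs lies in a single locus. Mir-279 and mir-996 each had 4 summits within 5 kb of the hairpin, while mir-92a had 2 and mir-92b had 3.

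The sequence around 3 summits is given for the locus of mir-277 and mir-34 and for bantam, whose summits lay outside protein-coding genes. Each run is the RefSeq plus strand of dm6 from 100 bp before to 100 bp after the summit. Capitals mark GATAAG on either strand, which reads CTTATC on the opposite strand, or a run of C that holds CCCCCC. A capital word marks letters only, and whether sug binds it was not tested.
Summit 391 bp upstream of mir-277, signal 1387, chr3R:10099531-10099731 (plus strand): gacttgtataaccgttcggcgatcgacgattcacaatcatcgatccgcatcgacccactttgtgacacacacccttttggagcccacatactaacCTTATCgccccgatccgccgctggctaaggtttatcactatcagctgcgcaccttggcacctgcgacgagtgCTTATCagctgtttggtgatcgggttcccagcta
Summit between mir-277 and mir-34, signal 465.2, chr3R:10100611-10100811 (plus strand): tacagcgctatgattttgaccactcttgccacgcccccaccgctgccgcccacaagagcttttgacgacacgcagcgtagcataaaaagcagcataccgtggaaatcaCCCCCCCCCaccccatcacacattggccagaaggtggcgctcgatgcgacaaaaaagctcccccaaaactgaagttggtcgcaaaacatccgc
Summit 721 bp downstream of bantam, signal 837.0, chr3L:642909-643109 (plus strand): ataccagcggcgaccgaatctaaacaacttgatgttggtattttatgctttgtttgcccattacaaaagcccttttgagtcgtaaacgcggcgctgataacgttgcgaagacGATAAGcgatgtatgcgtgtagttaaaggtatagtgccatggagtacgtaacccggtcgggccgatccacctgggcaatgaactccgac
The upstream mir-277 window holds GATAAG at 2 places, the bantam window at 1 place, and the window between mir-277 and mir-34 holds the run of C and no GATAAG. The 3 windows are examples and are not typical in holding a marked word. The window of another summit upstream of mir-277, with a signal of 1167, held neither word and is not shown. Of the 242 IDR summits within 5 kb of a locus 24.0% held GATAAG and 8.68% held CCCCCC.

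About as many microRNA loci had a summit as had none. Of 202 loci 105 (52.0%, 95% Wilson interval 45.1 to 58.8%) had an IDR summit within 5 kb, and of 260 hairpins 125 (48.1%) did. The share was 59.8% for all other annotated genes, 53.1% for transfer RNA genes and 78.1% for small nucleolar and spliceosomal RNA genes. Many of the other genes are far longer than a hairpin, whose median length was 92 bp, so a base position is the closer standard, and 31% of all positions on the arms lay within 5 kb of a summit. Within 1 kb the loci with a summit numbered 47 (23.3%), against 10.8% of positions. Within 10 kb they numbered 138 (68.3%), against 43.9% of positions. No test of these differences was made. Positions here and below include those of the Y, which had 0 loci and 0% of positions within 5 kb of a summit. They also include long stretches without a summit on other arms. The nearest summit lay 1964197 bp from mir-2279 on 2R and 632206 bp from mir-2490 on 2L. Such stretches lower the shares of positions, and by how much was not tested. Intervals here and below count loci as independent, which neighbouring loci are not.

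Intronic and isolated hairpins both lay near summits more often than positions of their own kind. An intronic locus lies inside a protein-coding gene of the same strand and outside its exons, and an isolated locus overlaps no protein-coding gene on either strand. Of 86 intronic loci 54 (62.8%, 52.2 to 72.3%) had a summit within 5 kb, against 31.3% of intron positions. Of 57 isolated loci 25 (43.9%, 31.8 to 56.7%) had one, against 17.3% of positions outside protein-coding genes. The order of the classes was the other way round at 1 kb, where 18 isolated loci (31.6%) and 16 intronic loci (18.6%) had a summit, against 6.55% of positions outside protein-coding genes and 11.6% of intron positions. Among loci with a summit, the nearest lay at a median of 591 bp from isolated loci and 1879.5 bp from intronic loci. Of 37 loci in exons 18 (48.6%) had a summit within 5 kb, against 49.4% of exon positions. Of 17 loci antisense to a protein-coding gene 6 had one, and of 5 loci of mixed position 2 had one.

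**Figure D1:**
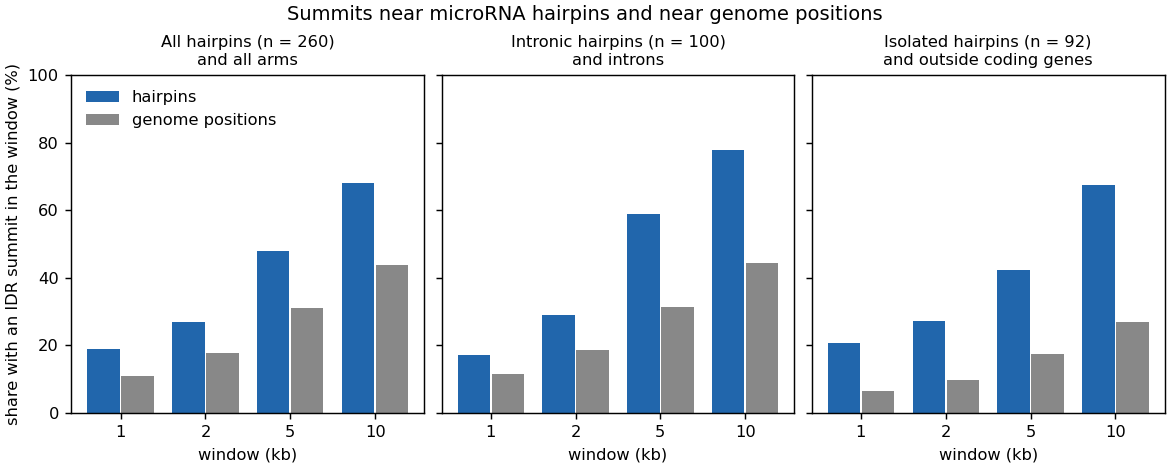
Share of single hairpins (blue) and of genome positions (grey) with an IDR summit within 1, 2, 5 and 10 kb, for all hairpins, intronic hairpins and isolated hairpins. At 1 kb 20.7% of isolated hairpins had a summit, against 6.55% of positions outside protein-coding genes, and 17.0% of intronic hairpins did, against 11.6% of intron positions.

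Protein-coding promoters hold most summits of the set, and loci with a summit lay closer to them. The median distance to the nearest protein-coding transcription start site (TSS) was 1494 bp for loci with a summit and 4864 bp for loci without. Of the 57 loci under 1 kb from such a TSS 39 (68.4%) had a summit within 5 kb, against 57.2% of positions at that distance. At 1 to 5 kb it was 52 of 83 loci (62.7%), against 44.4% of positions. At 5 to 20 kb it was 12 of 49 loci (24.5%), against 15.2% of positions, and at 20 kb or more it was 2 of 13 loci (15.4%), against 3.92%. The share of loci was above that of positions in each of these 4 ranges, and the differences were not tested. Of the 19 isolated loci 5 to 20 kb from a coding TSS 7 (36.8%) had a summit.

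**Figure D2:**
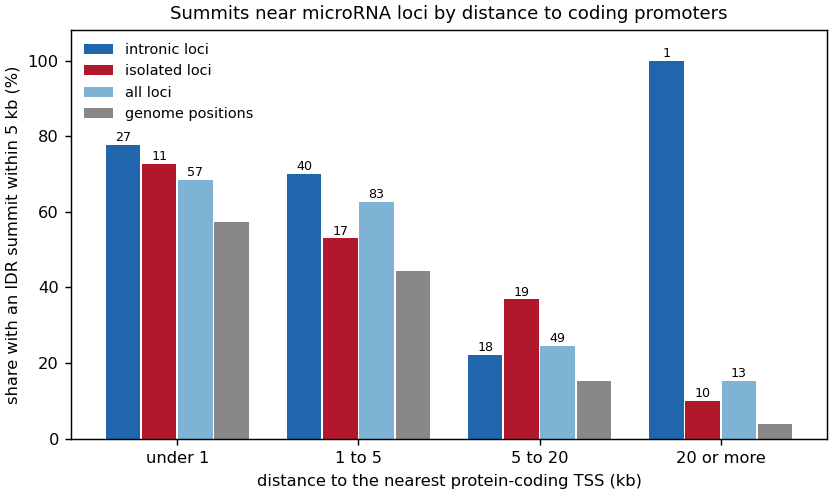
Share of loci with an IDR summit within 5 kb, by distance of the locus to the nearest protein-coding TSS, for intronic, isolated and all loci, beside genome positions at that distance (grey). Numbers above bars count the loci, and the intronic bar at 20 kb or more is 1 locus.

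The summits near microRNA loci were 242 distinct ones, 2.59% of the IDR set. Their signal, which is the authors' score and is compared only within a list, had a median of 481.7 and a range of 226.5 to 4736, against a median of 424.3 over the whole set. The highest summit of a locus was above the median of the set at 78 of 105 loci and among the 1000 highest at 25. A locus with several summits has more chances of a high one. The highest summit per locus had a median of 852.6 at isolated loci and 627.8 at intronic loci. Of the 242 summits 150 (62.0%) lay within 1 kb of a protein-coding TSS, close to the 61.4% of the whole set. Another 16 (6.61%) lay within 1 kb of a non-coding TSS only, against 3.21%, where the starts of the hairpin genes themselves were not counted. A further 32 (13.2%) lay away from all these and outside protein-coding genes, against 6.96%, and 44 (18.2%) lay further inside a protein-coding gene, against 28.5%.

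The classes differed in where their summits lay. Around isolated loci 24 of 68 summits (35.3%) were at a protein-coding TSS, 16 (23.5%) at a non-coding TSS only and 24 (35.3%) away from both and outside protein-coding genes. Around intronic loci 86 of 117 summits (73.5%) were at a protein-coding TSS, 0 at a non-coding TSS only and 26 (22.2%) further inside a gene. The classes were defined by the position of coding genes, so part of this follows from the definition. A summit more than 1 kb from every protein-coding TSS was present at 18 of 25 isolated loci and 17 of 54 intronic loci with a summit. On the strand of the hairpin 134 summits lay upstream of a locus, 100 downstream and 5 inside a span. The highest summit of the locus lay upstream at 64 loci and downstream at 38, and among isolated loci at 16 and 7.

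**Figure D3:**
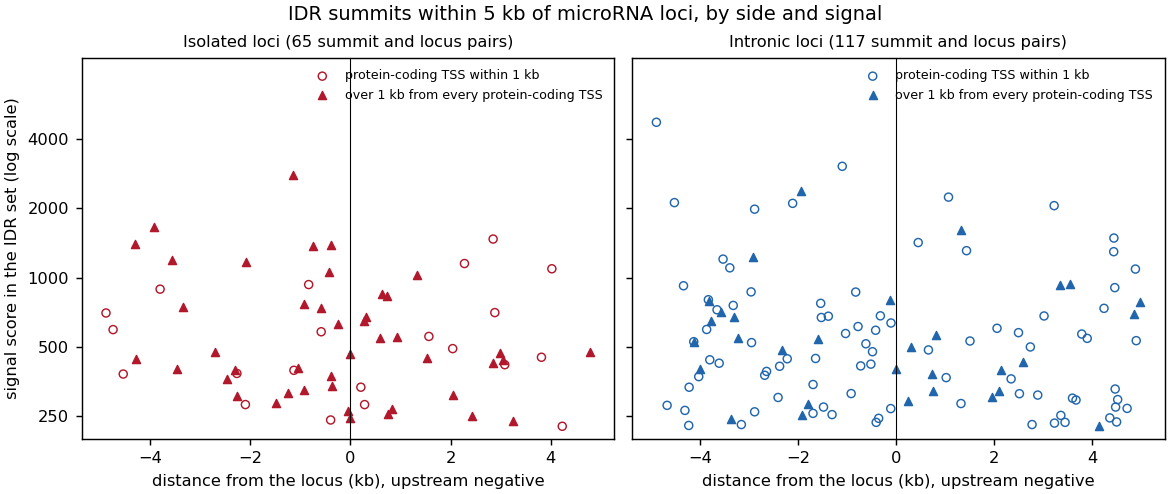
Distance of each IDR summit from the locus in kb, upstream negative, against its signal score on a log scale, for isolated loci (left) and intronic loci (right). Open circles lie within 1 kb of a protein-coding TSS and filled triangles do not, and the 3 summits at mir-314 and mir-956, which lie on opposite strands, are not drawn. The highest summit without a coding TSS near isolated loci, at 2804, lies upstream of mir-279 and mir-996, and the highest near intronic loci, at 4736, lies at the Idh promoter.

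Both replicates placed high summits near mostly the same loci. Among the 9342 highest summits of each replicate list, 100 loci had one within 5 kb in replicate 1 and 109 in replicate 2, with 92 in both. These 92 are 92.0% of the loci of replicate 1 and 84.4% of those of replicate 2. Of the 105 loci with an IDR summit 92 had a high summit in both replicates and none lacked one in both. Single summits within 5 kb of a locus were found in both replicate lists within 100 bp in 218 of 242 cases (90.1%), against 8419 of 9342 (90.1%) over the whole set. The IDR set was derived from these lists, so its overlap with them is not an independent measure.

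**Figure D4:**
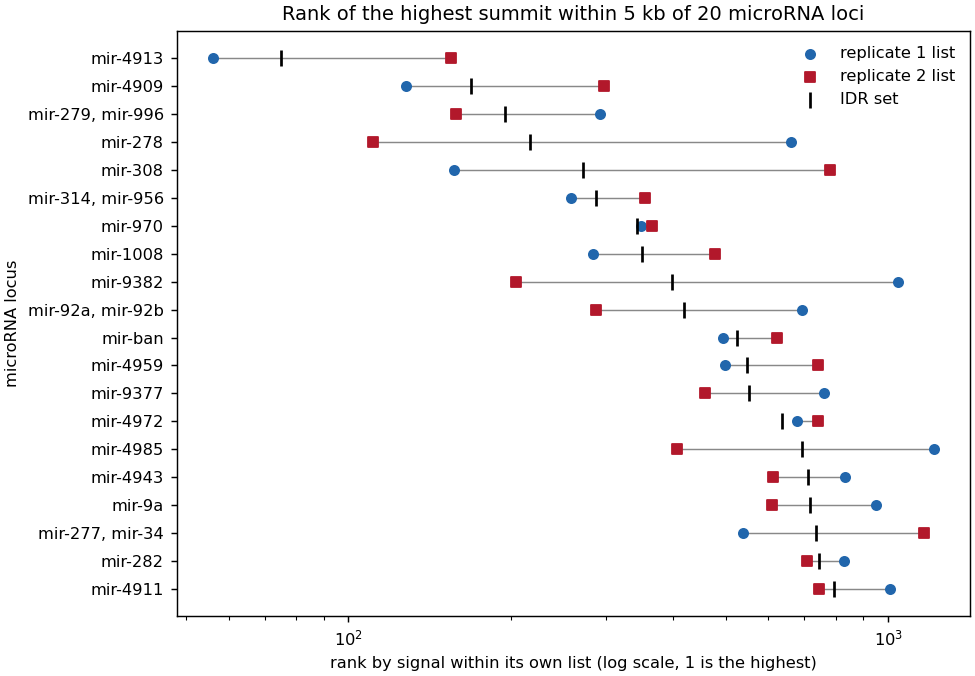
Rank by signal of the highest summit within 5 kb of the 20 loci with the highest signals, on a log scale, in the list of replicate 1 (circles), the list of replicate 2 (squares) and the IDR set (bars). Ranks of mir-970 are 348 and 365, while those of mir-278 are 662 and 111.

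Of the 10 loci with the highest signals 7 had that summit within 1 kb of a protein-coding TSS, in most cases that of a neighbour or host. The first was at mir-4913, in an intron of Culd, where a summit of 4736 (rank 75) lay 4899 bp upstream of the hairpin and 54 bp from a TSS of Idh, which encodes an isocitrate dehydrogenase. That summit ranked 56 in replicate 1 and 155 in replicate 2. The host Culd itself had no summit within 1 kb of a TSS. The hairpin mir-4909, in an intron of CG1941, lay between summits of 3049, 2240 and 2058, which were 138 bp from a TSS of CG1941, 33 bp from one of Dgat2 and 220 bp from one of CG1946. Dgat2 encodes a diacylglycerol acyltransferase, which makes triglyceride. These 3 summits ranked 128, 218 and 376 in replicate 1 and 298, 504 and 381 in replicate 2, so both lists held all of them among their high summits. Near mir-1008 the summit of 2105 lay 129 bp from a TSS of Hao, a hydroxyacid oxidase gene. Near mir-970 the summit of 2121 lay 200 bp from a TSS of its host Tomosyn, whose product binds SNARE proteins. Near mir-9382 the summit of 1986 lay 208 bp from a TSS of its host MRP, an ABC transporter gene, with ranks of 1045 in replicate 1 and 204 in replicate 2.

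The other 3 of the 10, at mir-279 with mir-996, mir-308 and mir-278, had their highest summit further from every coding TSS. The locus of mir-279 and mir-996, which act in the development of olfactory neurons, had 4 summits. The highest, 2804, lay 1140 bp upstream of mir-279 and 117 bp from the TSS of the non-coding host transcript lncRNA:CR31044, with ranks of 293 in replicate 1 and 158 in replicate 2. Summits of 629.2 and 264.0 lay 249 and 49 bp upstream of mir-279, and one of 1473 lay 2852 bp downstream at the TSS of eEF1gamma, a translation elongation factor gene. The pair mir-314 and mir-956, which lie on opposite strands, had a summit of 2341 at 309 bp from mir-314 and 1028 bp from mir-956, with ranks of 259 and 354 in the replicates, and a coding TSS, that of Muc68D, lay 546 bp from it. The locus of mir-92a and mir-92b in jigr1 had a summit of 1922 between its hairpins, 193 bp from a TSS of jigr1. Near mir-308, in an intron of the ribosomal protein gene RpS23, the summit of 2379 lay 1947 bp upstream and 1184 bp from the host's TSS, while the summit 11 bp from that TSS had a signal of 414.3. Beside mir-278 a summit of 2671 lay 743 bp downstream, inside fus and more than 7 kb from every coding TSS.

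The microRNAs listed here for metabolism or insulin signalling all had a summit within 5 kb, which holds for this list only. These were 11 hairpins in 7 loci, chosen with earlier results of these data known, so the count is a description. All 7 loci had a summit, 5 of them within 1 kb, the median distance to the nearest was 743 bp, and the median of the highest signals was 1105. Over all 202 loci the share was 52.0% and the median distance was 4684.5 bp. Over the 105 loci with a summit the median distance was 1324 bp and the median of the highest signals was 675.0. Mir-278, which acts in fat body on insulin responses, had the summit of 2671 described above, with a replicate score of 799.5 (rank 662) in replicate 1 and 1872 (rank 111) in replicate 2. Mir-277, which represses genes of branched-chain amino acid catabolism, shares its locus (chr3R:10100022-10101034) with mir-34. That locus had summits of 1387 at 391 bp upstream, 1167 at 2090 bp upstream and 465.2 between the hairpins, none within 7 kb of a coding TSS. The first ranked 538 in replicate 1 and 1165 in replicate 2, the next 617 and 1801, and the inner one 3721 and 5183. All 3 were thus higher in the ranking of replicate 1. The annotated start of the non-coding host, lncRNA:CR43459, lay 6261 bp from the locus and had no summit within 1 kb.

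Mir-8, the fly member of the family that includes vertebrate miR-200 and a regulator of fat body growth, had 7 summits within 5 kb, a number reached otherwise only by mir-375 and by the locus of mir-281-1 and mir-281-2. The highest, 1031, lay 1323 bp downstream, and one of 769.1 lay 932 bp upstream, 189 bp from a TSS of the host lncRNA:CR43650. The downstream summit ranked 1683 in replicate 1 and 973 in replicate 2, and the upstream one 2328 and 1803. Mir-14, which acts on fat stores and cell death, had 5 summits, the highest of 1191 at 3561 bp upstream and the nearest of 675.0 at 313 bp downstream, while the summit 8 bp from the start of its host lncRNA:CR43651 had 324.6. The highest ranked 792 in replicate 1 and 1193 in replicate 2. Mir-33, in an intron of SREBP, a transcription factor gene of lipid synthesis, had a summit of 1105 at 3399 bp upstream, 627 bp from a TSS of SREBP, with ranks of 964 and 1325. Mir-275 and mir-305 had 375.6 at 392 bp upstream and 556.3 at 1568 bp downstream, and the downstream one lay 116 bp from a TSS of muc, which encodes a component of the pyruvate dehydrogenase complex. The cluster that holds mir-310, mir-311, mir-312 and mir-313 had 1 summit of 281.5, which lay 3245 to 3665 bp from these 4 hairpins, 2100 bp from mir-992 at the end of the cluster and 46 bp from a TSS of HnRNP-K. It ranked 9692 in replicate 1 and 5246 in replicate 2. That was the lowest of the 7 loci, and it lay outside the 9342 highest of replicate 1.

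The microRNAs listed for growth and cell survival had a summit at 6 of 8 loci, holding 10 of 14 hairpins, with a median highest signal of 492.3. Over all loci it was 105 of 202, over all hairpins 125 of 260, and the median highest signal of the 105 loci was 675.0. This role list and those below were also chosen with earlier results of these data known, so their counts are descriptions. Bantam, which promotes growth and represses the cell death gene hid, had 6 summits around chr3L:642208-642288. The highest, 1656, lay 3934 bp upstream, 233 bp from the TSS of lncRNA:CR43423, and ranked 495 in replicate 1 and 623 in replicate 2. Downstream summits of 837.0 and 552.8 lay at 721 and 932 bp, and they ranked 1106 and 1558 in replicate 1 but 3561 and 14470 in replicate 2. The host transcript lncRNA:CR43334 starts 13773 bp from bantam, and the highest summit within 1 kb of one of its TSSs had 1558. Mir-11 and mir-998, in an intron of E2f1, had a summit of 577.7 downstream, at 3117 bp from mir-11 and 2499 bp from mir-998, which was 59 bp from a TSS of the insulin receptor gene InR. Mir-308 had the summit of 2379 described above, and mir-308 and bantam were the 2 of these loci with a summit within 1 kb. Of the remaining loci mir-2a-2, mir-2a-1 and mir-2b-2, in an intron of spi, had a highest summit of 392.1, and mir-13b-2, in an intron of CCT2, had 344.0. The locus of mir-13b-1, mir-13a and mir-2c had 406.8, and neither this nor the mir-13b-2 summit had a partner in replicate 2 within 100 bp. Mir-2b-1 had none nearer than 7601 bp, and the mir-6 hairpins lie in the cluster of mir-309, described next.

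Of 8 loci of microRNAs known for the nervous system and sense organs 3 had a summit within 5 kb, against 105 of 202 over all loci, and the difference was not tested. The 3 were those of mir-279 with mir-996, mir-9a and mir-7. Mir-9a, which acts in sense organ precursors, had 646.9 at 263 bp downstream and 1400 at 4311 bp upstream, and the upstream one ranked 948 in replicate 1 and 610 in replicate 2. Mir-7, in an intron of HnRNP-K, had 377.3 at 2686 bp, 399 bp from a TSS of its host. The nearest summit lay 5094 bp from mir-9b, 5278 bp from mir-79 and 5913 bp from mir-9c, which share a locus. It lay at 5598 bp for mir-184, at 5943 bp for mir-263b, at 8041 bp for the neuronal mir-124 and at 10369 bp for mir-263a (mir-bft). The loci of mir-9b, mir-184 and mir-263b are just outside the 5 kb window. The muscle, early zygotic and let-7 examples that follow are 1 locus each. Mir-1, the muscle microRNA, had none nearer than 7313 bp. The cluster of mir-309, mir-3, mir-286, mir-4, mir-5 and mir-6, known for clearing maternal transcripts in the early embryo, had none nearer than 8151 bp. The locus of let-7, mir-100 and mir-125, which times late development, had none nearer than 12380 bp. The list of timing and ageing held 2 loci, and 1 had a summit, that of mir-34 with mir-277 described above. Among Hox complex microRNAs mir-10 had a summit of 1063 at 434 bp upstream, which ranked 1228 in replicate 1 and 1210 in replicate 2, while the nearest to mir-iab-4 and mir-iab-8 lay at 5251 bp and to mir-993 at 13322 bp.

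**Figure D5:**
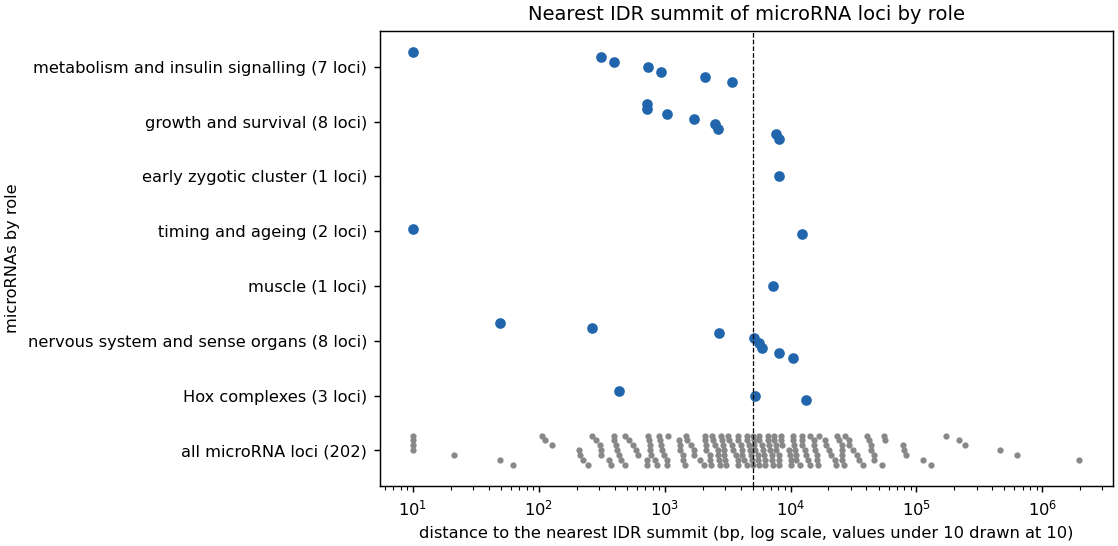
Distance in bp from each locus to its nearest IDR summit, on a log scale, for the loci of each role (blue) and for all 202 loci (grey). The dashed line marks 5 kb. All 7 loci of the metabolism list lie left of it, and 5 of the 8 loci of the nervous system list lie right of it. The roles were listed with earlier results of these data known.

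Host promoters were examined because an intronic hairpin can be made from its host's transcript. Of 90 protein-coding hosts of intronic loci 58 (64.4%) had a summit within 1 kb of a TSS, against 39.3% of all protein-coding genes. Hosts were longer, with a median span of 14880.5 bp against 2164.5 bp, and had a median of 2 TSSs against 1, and the part of length and TSS number in the difference was not tested. Of 86 intronic loci 55 had such a host, and at 32 of the 54 intronic loci with a summit within 5 kb, a summit in that window was itself within 1 kb of a host TSS. The highest host promoter summits were 3049 at CG1941 (mir-4909), 2828 at sty, an inhibitor of receptor tyrosine kinase signalling (mir-2282), 2121 at Tomosyn (mir-970), 1986 at MRP (mir-9382) and 1853 at Actn, the alpha-actinin gene (mir-4954). The growth factor gene spi had 1127 at a TSS, and Fatp3, a fatty acid transport protein gene, had 1422 (mir-4985).

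At 29 of the 57 isolated loci, at least 1 hairpin overlapped a non-coding gene of its own strand. A summit within 1 kb of a TSS of that gene was found at 10 of the 29 (34.5%), against 507 of 2548 other non-coding genes (19.9%). The lengths and TSS numbers of these genes were not compared, and the difference was not tested. Of the 29 loci 14 had a summit within 5 kb of the locus. Of the 28 isolated loci without such a host 11 had a summit within 5 kb. In 3 cases the host's start had a summit although the hairpin had none within 5 kb. They were mir-184, whose host lncRNA:CR44206 starts 15307 bp away and had 489.9, mir-263a, whose host lncRNA:CR43314 starts 17591 bp away and had 361.4, and mir-4951, in lncRNA:Hsromega, whose start 20589 bp away had 1020. The hosts of let-7, mir-1, mir-124 and the mir-309 cluster had no summit within 1 kb of a TSS.

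The other loci with a summit within 1 kb are given by class. Among isolated loci mir-282 had 1379 at 757 bp upstream, 329 bp from a TSS of its host lncRNA:CR43626, with ranks of 829 and 708 in the replicates. Mir-375 had 7 summits, 4 of them within 1 kb, with 852.6 at 638 bp downstream and 742.3 at 579 bp upstream. Mir-87 had 547.1 at 591 bp, mir-4981 934.4 at 835 bp, mir-276a 256.9 at 759 bp, mir-958 241.2 at 396 bp, mir-9388 334.8 at 208 bp and mir-2496 281.3 at 283 bp. Mir-969 and mir-210 had 246.1 in the gap between them, 1221 bp from mir-969 and 2548 bp from mir-210, and theirs was the only locus counted at 1 kb with no hairpin within that distance. Isolated loci thus covered a wide range of signal even where a summit was close.

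Among intronic loci the nearest summit within 1 kb was highest at mir-4985, with 1422 at 450 bp. It was 804.8 at 127 bp for mir-9378, 636.4 at 106 bp for mir-4975, 614.3 at 779 bp for mir-2501, 591.7 at 420 bp for mir-966 and 498.6 at 308 bp for mir-9377. It was 477.5 at 484 bp for mir-929, 421.7 at 517 bp for mir-4968, 323.7 at 753 bp for mir-4912, 314.2 at 920 bp for mir-4974, 290.4 at 244 bp for mir-2282 and 270.3 at 111 bp for mir-986. The lowest were 245.2 at 358 bp for mir-4980 and 235.5 at 409 bp for mir-4910, and mir-4962 had 401.0 inside the hairpin. Near mir-9377, in an intron of the zinc finger RNA-binding protein gene Tis11, 5 summits lay within 5 kb and the highest, 1608 at 1332 bp downstream, was more than 6 kb from every coding TSS.

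Exonic loci had 1046 at 62 bp for mir-11182, 883.6 at 211 bp for mir-4949 in ATPsynC, an ATP synthase subunit gene, and 568.1 at 950 bp for mir-4959. They had 320.8 at 21 bp for mir-9373, 249.5 at 226 bp for mir-4943, 245.3 at 875 bp for mir-4955 and 237.0 at 613 bp for mir-9374. Antisense loci had 1017 at 989 bp for mir-4978, 493.0 at 899 bp for mir-9380, 363.4 at 480 bp for mir-4957 and 285.9 at 564 bp for mir-980. Hairpins with names numbered 900 or more were catalogued later than those with low numbers. Their loci had a summit within 5 kb in 77 of 145 cases (53.1%), and loci with a name number under 400, or with no number, in 28 of 57 (49.1%). Among isolated loci the counts were 6 of 21 for the high numbers and 19 of 36 for the low ones.

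Clusters of 4 or more hairpins were 7 loci, too few for a general statement. Of these 7 loci 2 (28.6%) had a summit within 5 kb, against 31.0% of all positions, and 0 within 1 kb. Of the 176 loci with a single hairpin 92 (52.3%) had one within 5 kb and 41 within 1 kb. The difference was not tested. The 2 clusters with a summit were the mir-310 cluster and the X-linked cluster of mir-2499, mir-4966-1, mir-4966-2, mir-975, mir-976, mir-977, mir-978 and mir-979. The X-linked one had 762.8 at 4073 bp, 15 bp from a TSS of car, a gene of lysosomal trafficking, and that summit had no partner in replicate 1. The nearest summit lay 14226 bp from the cluster of mir-972, mir-9369, mir-973 and mir-974, 40814 bp from that of mir-982, mir-303, mir-983-1, mir-983-2 and mir-984, and 78338 bp from that of mir-959 to mir-964. The cluster of mir-9c, mir-306, mir-79 and mir-9b, in an intron of grp, was the closest to the window at 5094 bp.

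MicroRNAs that share a seed did not always share the presence of a summit. The seed of each hairpin was taken from the first product in the RefSeq annotation, and 53 hairpins shared 17 seeds. That product can come from either arm of the hairpin. Seeds shared only through the other product were not counted. Of these 53 hairpins 30 had a summit within 5 kb, against 125 of 260 (48.1%) over all hairpins. Hairpins of the same locus can share summits, so they are not separate cases. The seed AUCACAG, of the family of mir-2, mir-6, mir-11, mir-13 and mir-308, occurred in 13 hairpins at 7 loci, of which 5 loci had a summit. The seed AUUGCAC, of mir-92a, mir-92b and mir-310 to mir-313, occurred at 2 loci and both had a summit. The seed CUUUGGU occurred in mir-9a, which had a summit, and in mir-9b and mir-9c, which had none. The seed GACUAGA occurred in mir-279 and mir-996, which had summits, and in mir-286 of the mir-309 cluster, which had none.

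The share of summits near microRNA loci holding a searched word was within 3 percentage points of that over all IDR summits. Each word was searched on both strands of the 201 bp centred on the summit. GATAAG, the core bound by GATA factors, was present at 24.0% of the 242 summits and 25.8% of all 9342. CCCCCC was present at 8.68% and 9.07%, GAGAGAG at 5.37% and 5.06%, CACGTG at 4.55% and 3.19%, and CAGGTAG at 0.826% and 0.739%. TATCGATA, a promoter word known as the DRE core, was present at 16 summits (6.61%, 95% Wilson interval 4.11 to 10.5%), against 3.76% of all, which is below that interval. A run of GA can match GAGAGAG at overlapping places, and TATCGATA followed by AG also holds GATAAG. The interval counts summits as independent, which summits of the same locus are not. No difference between these shares was tested.

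The loci without a summit numbered 97, and 38 of them had none within 20 kb. Around the limit of the window 12 loci had their nearest summit at 4 to 5 kb and 10 at 5 to 6 kb. By arm, 29 of 49 loci on 3R had a summit within 5 kb, 18 of 30 on 3L, 21 of 40 on 2R, 21 of 41 on 2L, 16 of 40 on X and 0 of 2 on 4. The share of positions within 5 kb of a summit was 31.4% on 3R, 32.0% on 3L, 32.7% on 2R, 32.3% on 2L, 31.6% on X and 20.9% on 4, and the spread of the loci between arms was not tested.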

How the data were processed

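Per the labels, whole embryos of 1 transgenic line gave 2 biological replicates, and p-values were not computed because there was 1 group. Per the README texts that the authors deposited, they called peaks on dm6 for each replicate with a control and on the pooled reads, and derived the IDR set from these lists. Aligner, peak caller and versions were not given in the sources used here. The authors deposited for each summit a −log10 q and a signal score, comparable only within 1 list. The −log10 q was 4.38 in every row of the IDR set and was not used. The replicate and pooled lists hold 30000 summits each. In 2 IDR rows the summit lay past its interval and was set to the interval's end. Without read counts the depth of each replicate is unknown.

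Hairpins were the genes with a pre_miRNA transcript in Ensembl release 115, of which 260 of 262 lay on the main arms. Coordinates are 1-based. The names bantam, let-7 and mir-263a correspond to mir-ban, mir-let7 and mir-bft in the annotation. Mature sequences were available for all 260 hairpins. Named loci were those with an IDR summit within 1 kb, the 10 with the highest signal within 5 kb, those with 4 or more hairpins, and those on lists of microRNAs with known roles, 74 in all. The members and lists were chosen with earlier results of these data known. Counts were checked on simulated summits placed at known distances. Other windows, merge distances, definitions of host and peak lists were tried as alternatives. Computations used Python 3.11.15, numpy 2.4.6, scipy 1.17.1 and matplotlib 3.10.9.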

Additional observations from a re-analysis of the deposited data

Results flagged for a closer look

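Below the IDR threshold, 21 of the 97 loci without an IDR summit (21.6%) had a summit of the pooled list within 5 kb that was also found in both replicate lists within 100 bp. The pooled list was used in no comparison above, which is why this count is given. A further look at any pooled summit gave 29 loci, and 68 had none. At mir-1 the highest such summit had a pooled score of 63.3 (rank 23060) at 3355 bp. The cause was not tested.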

How the results depend on the processing

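The 5 kb window set most counts. With 1 kb and 2 kb the loci with a summit numbered 47 and 62 in place of 105, the intronic loci 16 and 27 in place of 54, and the hairpins 49 and 70 in place of 125, since a narrower window holds fewer summits. With non-coding genes also counted as hosts and neighbours, 10 of 27 isolated loci had a summit, in place of 25 of 57, since fewer loci were then isolated. With the 4671 IDR summits of the higher signal, 37 hosts had a promoter summit in place of 58, and 63 of the 74 named loci kept the presence or absence of a summit. With 1 replicate left out, loci ranged over 100 to 109, intronic loci over 50 to 52, isolated loci over 25 to 27, hairpins over 113 to 129 and host promoters over 53 to 58. The alternatives for host promoters and for single named loci were chosen after seeing the data. Merging hairpins within 1 or 10 kb, merging by strand and requiring both replicates left each count within 1.5 times. No paired analysis was possible because there was 1 group. The unknown depth and the missing untagged samples limit all counts, and an absent summit does not show that binding was absent.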
